A study of Danio rerio with 2 samples.

Results

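Genes that break down amino acids and dispose of their nitrogen were followed in the livers of zebrafish (Danio rerio), in 1 library from wild-type fish and 1 library from ambp knockout fish. The 47 names in the set were chosen by function. They are the enzymes of phenylalanine, tyrosine, tryptophan, histidine, glutamate, arginine, proline, glycine, serine and branched-chain amino acid breakdown. Of the names, 45 were matched to 48 of the 25939 genes listed in the deposited data. Both groups were given a high-fat diet, the tissue was liver in both, and the labels name no other treatment or allele. The knockout is labelled ambp ko, and elsewhere as homozygous for a loss of ambp, the gene for the precursor of alpha-1-microglobulin and bikunin. The age and number of fish behind each library and the kind of mutation could not be read from the labels. With 1 library per genotype the differences have no replicate check, so no test was made, and each interval is a 95% interval that covers counting error only.

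Amino acids that are not used for protein cannot be stored, and the liver is where most of them are taken apart. A transaminase usually moves the amino group to a keto acid, glutamate dehydrogenase and glutaminase release ammonia, and the carbon skeleton enters the citric acid cycle or ketone body synthesis. Mammals turn the ammonia into urea, whereas most adult bony fish, zebrafish among them, release it mainly as ammonia through the gills. Glutamine synthetase traps ammonia as glutamine, and the glycine cleavage system and histidine breakdown feed carbon units to folate.

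The libraries held 15659846 reads in wild type and 18357830 in knockout liver, and the targeted gene ambp had 50280 and 3085 reads, 22.8-fold lower in the knockout (22.0 to 23.6). Levels are CPM, the reads of a gene relative to the library's total, with library sizes scaled by TMM, which assumes that most genes do not differ. The log2 ratio is knockout over wild type with 1 CPM added to each level, and a gene counts as past 2-fold when this ratio is at least 1 or at most -1. Levels of single genes are ranked against each other by the authors' FPKM, which divides by gene length. Shares of gene copies and sums over genes are given in reads or CPM, which also depend on gene length. Of the 14 hepatocyte markers all were detected in both libraries, with 211904 and 193742 CPM in sum. Single hepatocyte markers went either way, with 6 log2 ratios above 0 and 8 below. Past 2-fold were a1cf, 5.01-fold higher in the knockout, and cebpa, 2.79-fold lower. The marker hnf4a, 2.01-fold lower (1.87 to 2.17), lay just inside the rule with a log2 ratio of -0.997. The kidney and skeletal muscle markers summed to under 1 CPM in each library. Markers of other cells also differed between the libraries. The 18 exocrine pancreas genes summed to 43.6 CPM in wild type and 499 CPM in knockout liver, with 15 of 16 measured past 2-fold higher. The 12 macrophage markers went from 305 to 432 CPM, with csf1rb at 0 in both, the 8 neutrophil genes from 93.8 to 153 CPM and the 7 erythroid genes from 382 to 208 CPM, with hbae1.1 at 0 in both. Of the 2 genes named epx in the neutrophil list, 1 had 0 reads in both. The other (ENSDARG00000019521), which carries the deposited symbol Mpo, had 1 read in wild type against 556. Past 2-fold higher were 5 of the 11 macrophage markers measured and 3 of the 7 neutrophil genes measured, where 5.40% of all genes measured were. None of the 5 erythroid genes measured passed 2-fold, all 5 had log2 ratios below 0, and hbaa1 alone had 351 and 187 CPM. Biliary markers summed to 2121 and 2546 CPM and intestinal ones to 268 and 182 CPM. Among the biliary markers krt18a.1 was 2.17-fold higher, while 3 of the 5 had log2 ratios below 0. Of the 2 intestinal markers measured, fabp2 was 1.52-fold lower and cdh17 1.36-fold higher. The part of these cells in the results was not tested, and in bulk RNA fewer cells of a type cannot be told apart from less RNA per cell.

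Amino acid breakdown genes did not move one way. Of the 48 genes, 44 reached 1 CPM in a library, 40 of them in both, and 3 were past 2-fold higher and 4 past 2-fold lower. That is 15.9% of the 44 genes, where 11.8% of all 11634 genes measured were past 2-fold, 5.40% higher and 6.40% lower. Where a listed name is shared by 2 genes, such as GLS2, GLUL and GPT, both are counted here. Among the 36 measured genes that a listed name matches alone, 4 (11.1%) were past 2-fold, a setting chosen after seeing the data. Ratios were above 0 for 24 of the 44, where 49.8% of all genes measured were above 0, and the median log2 ratio was 0.05, where that of all genes was 0.00. At 1.5-fold, 34.1% of the set was past the rule, close to the 33.3% of all genes measured. The higher genes were fah, oat and 1 gene named GLS2, and the lower ones were prodha, gldc, 1 gene named GLUL and 1 gene named AGXT. That GLS2 gene (0.418 and 3.24 CPM) and prodha (6.34 and 0.499 CPM) reached 1 CPM only in the library where they were higher. With at least 10 CPM in a library required, 13.2% of the set and 14.5% of all genes were past 2-fold. Scaling by library totals in place of TMM raised the median of all genes to 0.22 and that of the set to 0.29, so small ratios are read against the other genes. How far the share past 2-fold lay from that of all genes depended on the setting. For the set and all genes it was 22.7% and 13.2% with library totals, and 22.7% and 8.40% with FPKM. It was 13.6% and 4.04% with 5 CPM added, and 18.2% and 21.4% with 0.1 CPM added. Under the 4 scalings tried, 24 genes stayed above 0 and 14 below 0, while pah, got1, glud1b, hibch, pcca and pccb changed side.

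**Figure D1:**
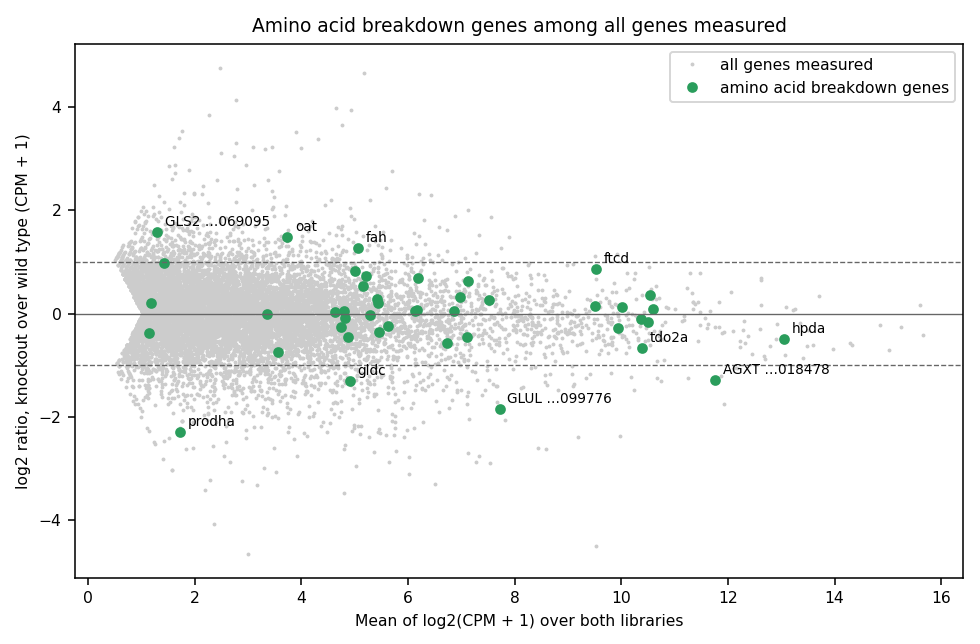
The log2 ratio of knockout over wild type with 1 CPM added (y axis) is plotted against the mean of log2(CPM + 1) over both libraries (x axis) for the 11634 genes measured in grey and the 44 amino acid breakdown genes measured in green. Dashed lines mark 2-fold, with 3 green points above the upper line and 4 below the lower one, and most of the other green points lie close to 0.

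Tyrosine breakdown held the most abundant transcript of the set and 1 gene past 2-fold, at its last step. With phenylalanine, that is 16.7% of the 6 genes measured, beside the 11.8% of all genes measured. Phenylalanine hydroxylase, pah, which makes tyrosine from phenylalanine, had 19688 reads in wild type and 25549 in knockout liver, or 1373 and 1275 CPM. Tyrosine aminotransferase, tat, which removes the amino group, had 18819 and 33906 reads, or 1312 and 1692 CPM, a 1.29-fold higher level in the knockout (1.27 to 1.31). The next enzyme, 4-hydroxyphenylpyruvate dioxygenase, is encoded by hpda, which had 144138 and 143585 reads. At 5151 and 4378 FPKM hpda ranked 21 among all genes in both libraries. Its level went from 10049.5 to 7164 CPM, 1.40-fold lower in the knockout (1.39 to 1.41), and it stayed lower under the 4 scalings, between -0.50 and -0.23 on the log2 scale.

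Homogentisate dioxygenase, hgd, which opens the aromatic ring, had 979 CPM in wild type and 1076 CPM in knockout liver. The isomerase gstz1 acts next and had 160 and 117 CPM, a log2 ratio of -0.45. Fumarylacetoacetate hydrolase, fah, which splits the product into fumarate and acetoacetate, had 293 reads in wild type and 1016 in knockout liver, or 20.4 (18.2 to 22.9) and 50.7 CPM (47.6 to 53.9). This was 2.48-fold higher in the knockout (2.18 to 2.84), the largest ratio of this pathway, and by FPKM the gene was the least abundant of the 6 measured in both libraries, at 19.0 in wild type against 56.1. Steps of the pathway had ratios of either sign, from -0.49 for hpda to 1.27 for fah. The copy hpdb had 3 and 13 reads and did not reach 1 CPM in either library.

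Among the other genes of phenylalanine and tyrosine metabolism, from a list of cofactor and regulatory genes, gch1 was the 1 gene past 2-fold of 6 measured. That is 16.7%, beside the 11.8% of all genes measured. It encodes GTP cyclohydrolase, the entry to tetrahydrobiopterin, the cofactor that phenylalanine hydroxylase needs. Its 1187 and 559 reads gave 82.8 and 27.9 CPM, 2.97-fold lower in the knockout (2.68 to 3.29). The genes that bind or renew the cofactor differed less, with pcbd1 at -0.05, the more abundant QDPR gene (ENSDARG00000040190) at 0.22 and gchfr, whose product holds GTP cyclohydrolase back, at -0.38.

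In tryptophan breakdown no gene was past 2-fold. Tryptophan dioxygenase, which opens the indole ring, is encoded by tdo2a and tdo2b. The tdo2a gene had 24180 and 21344 reads, 1686 and 1065 CPM, 1.58-fold lower in the knockout (1.55 to 1.61). For tdo2b the reads were 15462 and 17705, or 1078 and 883 CPM, a log2 ratio of -0.29 that was -0.03 with library totals. The formamidase afmid, which frees kynurenine, had a ratio of -0.36. Kynurenine monooxygenase, kmo, had 1632 and 2349 reads, and at 114 and 117 CPM its interval of 0.967 to 1.098-fold includes 1.

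Kynureninase, kynu, had 397 and 935 reads, or 27.7 and 46.6 CPM, 1.69-fold higher in the knockout (1.497 to 1.90). The deposited FPKM of kynu, 3.89 and 25.75, differ far more, because the gene length implied by reads and FPKM was 6.52 kb in wild type and 1.98 kb in knockout liver. On log2(FPKM + 1) its ratio was 2.45 in place of 0.73, so its call depends on the unit. The 3-hydroxyanthranilate dioxygenase haao, on the way to NAD, had 816 and 1845 reads, 56.9 and 92.0 CPM, and 1.62-fold (1.49 to 1.76). With FPKM its log2 ratio passed 2-fold, at 1.03, and its implied gene length was 1.33 and 1.24 kb. From the wider list acmsd, which diverts the path away from NAD, had a log2 ratio of 0.65, ido1, which also opens tryptophan, had -0.11 and the aminotransferase kyat1 had -0.40. None of the 6 tryptophan genes measured in that list passed 2-fold. Macrophages are known to express several kynurenine genes, and the sum of their markers was 1.42-fold higher in the knockout library (1.36 to 1.47). Of the 11 markers measured, 5 were past 2-fold higher, 45.5% beside 5.40% of all genes, with a median log2 ratio of 0.89. The part of macrophages in the ratios of the tryptophan genes was not tested.

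Histidine breakdown has 4 enzymes in a row, and its last was the one that differed most. Histidine ammonia-lyase, hal, had 540 and 923 reads and 37.6 and 46.0 CPM. Urocanase, uroc1, had 1607 and 2820 reads and 112 and 141 CPM. Both were modestly higher, at 1.22-fold (1.099 to 1.36) and 1.26-fold (1.18 to 1.34). The third enzyme, imidazolonepropionase, amdhd1, went the other way, with 1853 and 1739 reads, 129 and 86.8 CPM, and 1.49-fold lower (1.39 to 1.59).

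The gene ftcd encodes the bifunctional enzyme that passes the formimino group to tetrahydrofolate and ends the path in glutamate. It had 7793 reads in wild type and 19847 in knockout liver, or 543 and 990 CPM, 1.82-fold higher (1.78 to 1.87). Its log2 ratio of 0.86 passed 2-fold with library totals, at 1.12, and with FPKM, at 1.12. Summed over the 4 genes the level was 822 CPM in wild type and 1264 CPM in knockout liver, but without ftcd the sums were 279 and 274 CPM.

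None of the aspartate and alanine aminotransferase or glutamate dehydrogenase genes of the set passed 2-fold. Cytosolic aspartate aminotransferase, got1, had 755 and 895 reads, a log2 ratio of -0.23 that turned to 0.02 with library totals. The mitochondrial forms had 1597 and 3464 reads for got2a, 1.55-fold higher (1.46 to 1.65), and 969 and 1409 reads for got2b, 1.04-fold (0.958 to 1.13). Alanine aminotransferase, which takes up the nitrogen that alanine brings from muscle, came almost wholly from 1 of the 2 genes named GPT (ENSDARG00000019541), with 9843 and 15339 reads. Its level was 686 and 765 CPM, a ratio of 0.16, and the other GPT gene (ENSDARG00000055642) had 22 and 19 reads. Glutamate dehydrogenase, which releases ammonia from glutamate in mitochondria, came mainly from glud1b, with 21793 and 27363 reads and 1519 and 1365 CPM. Its ratio of -0.15 became 0.10 with library totals. The minor copy glud1a had 413 and 846 reads, 1.47-fold higher (1.30 to 1.65).

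Glutamine synthetase binds ammonia as glutamine and glutaminase frees it, and 1 gene of each was past 2-fold. Of the 2 genes named GLUL, the main one (ENSDARG00000099776) had 5717 reads in wild type and 2213 in knockout liver, or 399 (388 to 409) and 110 CPM (106 to 115). This was 3.61-fold lower in the knockout (3.44 to 3.79), and its log2 ratio of -1.84 stayed between -1.86 and -1.58 in every setting tried. The second GLUL gene (ENSDARG00000100003) was lower too, with 205 and 163 reads, 1.76-fold (1.42 to 2.17). Its implied gene length was 1.85 and 1.65 kb, and with FPKM its log2 ratio was -0.34 against -0.74. Together the 2 GLUL genes gave 413 and 119 CPM.

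For glutaminase the picture was of 1 steady and 1 rare gene, both named GLS2. The main one (ENSDARG00000002917) had 379 and 549 reads, 26.4 and 27.4 CPM, and its fold of 1.04 had an interval of 0.908 to 1.18. The other (ENSDARG00000069095) had 6 reads in wild type and 65 in knockout liver, 0.418 and 3.24 CPM, 7.75-fold higher (3.38 to 21.9). At this low level its log2 ratio was 1.58 with 1 CPM added and 0.61 with 5 CPM added, which ends the call. The files do not say which GLUL gene is glula or which GLS2 gene is gls2a, so both of each are given.

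**Figure D2:**
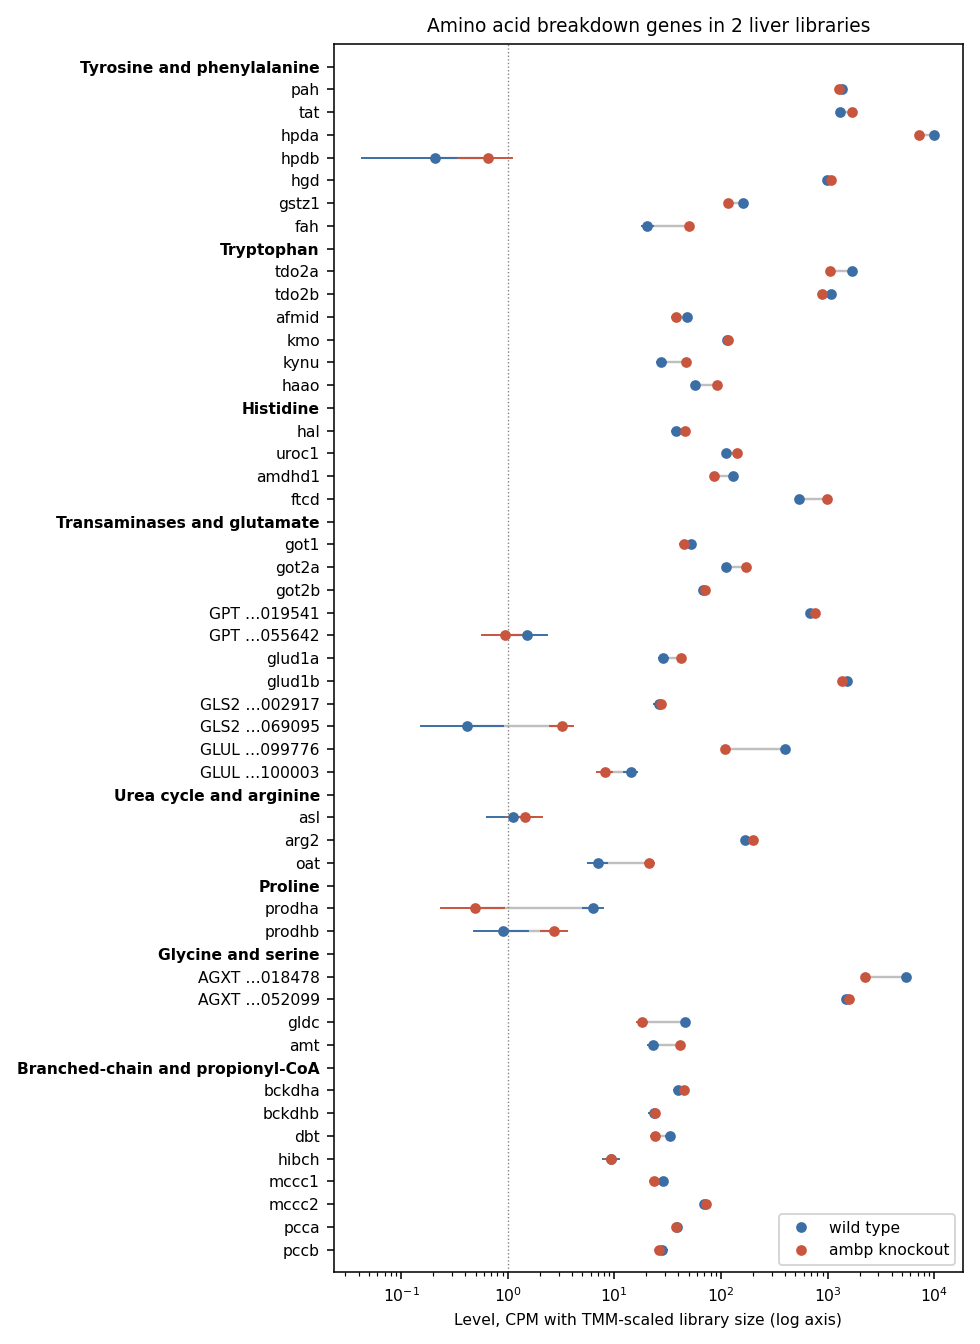
Level of each amino acid breakdown gene with at least 1 read, in CPM on a log axis, with wild type in blue and the knockout in red, grouped by amino acid. Bars are exact Poisson intervals (95%), the dotted line marks 1 CPM, a grey line joins the 2 libraries of a gene, and most joined points lie close together.

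Part of the urea cycle was not detected in these livers. Carbamoyl phosphate synthetase, cps1, ornithine transcarbamylase, otc, and the liver arginase of mammals, arg1, had 0 reads in both libraries. At this depth a count of 0 allows a level of up to 0.209 CPM in wild type and 0.150 CPM in knockout liver, taking 3 reads as the limit. Argininosuccinate lyase, asl, had 16 and 29 reads, 1.30-fold with an interval of 0.681 to 2.56. From the list of other nitrogen genes, nags, which makes the activator of carbamoyl phosphate synthetase, and slc25a13, a mitochondrial aspartate carrier, also had 0 reads in both. The ammonia channel rhbg and the urea transporter slc14a2 had none either, while the channel rhag had 41 and 47 reads and the other aspartate carrier, slc25a12, had 71 and 65. The member ass1 was not analysed here.

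Arginine breakdown past the cycle was expressed. Mitochondrial arginase, arg2, which splits arginine into urea and ornithine, had 2405 and 4019 reads, 168 and 201 CPM, 1.196-fold higher (1.14 to 1.26). Ornithine aminotransferase, oat, which turns ornithine into glutamate semialdehyde, had 100 reads in wild type and 427 in knockout liver, 6.97 (5.67 to 8.48) and 21.3 CPM (19.3 to 23.4). That was 3.06-fold higher in the knockout (2.45 to 3.84), with a log2 ratio of 1.48, between 1.14 and 1.72 over the settings. The agmatinase gene agmat, from the list of other genes, had 237 and 684 reads and lay at the 2-fold rule, with a log2 ratio of 1.003. The creatine synthesis genes gatm, whose enzyme draws on arginine and glycine, and gamt differed in sign, at 0.81 and -0.78. The abundant gamt had 14431 and 11712 reads.

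Proline dehydrogenase, which starts proline breakdown in mitochondria, has copies that went opposite ways on few reads. The prodha gene had 91 reads in wild type and 10 in knockout liver, 6.34 (5.11 to 7.79) and 0.499 CPM (0.239 to 0.918), 12.7-fold lower (6.61 to 27.4). The prodhb gene had 13 and 55 reads, 0.906 and 2.74 CPM, 3.03-fold higher (1.63 to 6.04), just inside the 2-fold rule at 0.97 because of the added 1 CPM. As a share of the pair's reads, prodha made up 87.5% (79.6 to 93.2) in wild type and 15.4% (7.63 to 26.5) in knockout liver. Its implied gene length was 1.32 and 1.03 kb, and by FPKM its share was 94.8% and 38.4%. The next enzyme, aldh4a1, which oxidises glutamate semialdehyde from both proline and ornithine to glutamate, had 244 and 806 reads, 2.36-fold higher (2.05 to 2.74).

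Glyoxylate and glycine genes held 1 of the most abundant transcripts of the set, and it was past 2-fold lower. Alanine-glyoxylate aminotransferase, which detoxifies glyoxylate to glycine, is encoded by 2 genes that share the name AGXT in the name table, so which is agxta and which agxtb is not settled. The first (ENSDARG00000018478) had 77602 reads in wild type and 44828 in knockout liver, 5410 (5372 to 5449) and 2237 CPM (2216 to 2257). It was 2.42-fold lower (2.39 to 2.45) and went from rank 37 to rank 68 among all genes by FPKM, at 3113 and 1534. The second (ENSDARG00000052099) had 21429 and 31789 reads, 1494 and 1586 CPM, 1.06-fold (1.04 to 1.08). The first gene's share of their reads was 78.4% (78.1 to 78.6) in wild type and 58.5% (58.2 to 58.9) in knockout liver.

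Subunits of the glycine cleavage system, the mitochondrial complex that splits glycine into carbon dioxide, ammonia and a folate carbon unit, did not go together. The decarboxylase gldc had 663 and 363 reads, 46.2 (42.8 to 49.9) and 18.1 CPM (16.3 to 20.1), 2.55-fold lower (2.24 to 2.91). With FPKM its log2 ratio was just inside the rule, at -0.995 against -1.31. The aminomethyltransferase amt went the other way, with 331 and 831 reads, 23.1 and 41.5 CPM, 1.80-fold higher (1.58 to 2.05). It passed 2-fold with library totals, at 1.06, and with FPKM, at 1.03. Of the remaining subunits, listed outside the set, gcshb had -0.45, gcsha 0.06 and dldh -0.01. The serine hydroxymethyltransferases that use the same folate unit were both higher without passing 2-fold, shmt1 at 0.66 on 4352 and 9619 reads and shmt2 at 0.64. The member sds was not analysed here.

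Branched-chain amino acid breakdown was nearly level. By FPKM the 8 genes ran from 3.90 for hibch to 31.3 for mccc2 in wild type, and all their log2 ratios lay between -0.45 and 0.20. The dehydrogenase that commits the keto acids to breakdown had bckdha at 0.20 on 567 and 911 reads, bckdhb at 0.04 on 337 and 483, and its core dbt at -0.45 on 479 and 484. The leucine-specific carboxylase had mccc1 at -0.25 on 407 and 475 reads and mccc2 at 0.06 on 997 and 1456. The valine hydrolase hibch had 134 and 185 reads, and the propionyl-CoA carboxylase genes pcca and pccb had 553 and 759, and 402 and 531. For hibch, pcca, pccb, bckdhb and mccc2 the counting intervals of the fold included 1. Summed over the 8 genes the level was 270 CPM in wild type and 264 CPM in knockout liver, 0.976-fold (0.936 to 1.02).

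In the wider list 3 of 20 measured genes grouped with this path passed 2-fold, 15.0% beside the 11.8% of all genes measured. They were bcat1, bcat2 and ech1, the last of which acts in fatty acid oxidation. The cytosolic transaminase bcat1 had 62 and 198 reads and was 2.29-fold higher (1.71 to 3.09), and the mitochondrial bcat2 had 404 and 270 reads and was 2.09-fold lower (1.79 to 2.45). The kinase bckdk, which switches the dehydrogenase off, had a ratio of 0.93 on 276 and 754 reads, and the genes of the phosphatase that switches it on, ppm1ka and ppm1kb, had 0.69 and 0.08. The abundant aldh6a1, of valine and pyrimidine breakdown, had 21706 and 21229 reads, a ratio of -0.51.

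**Figure D3:**
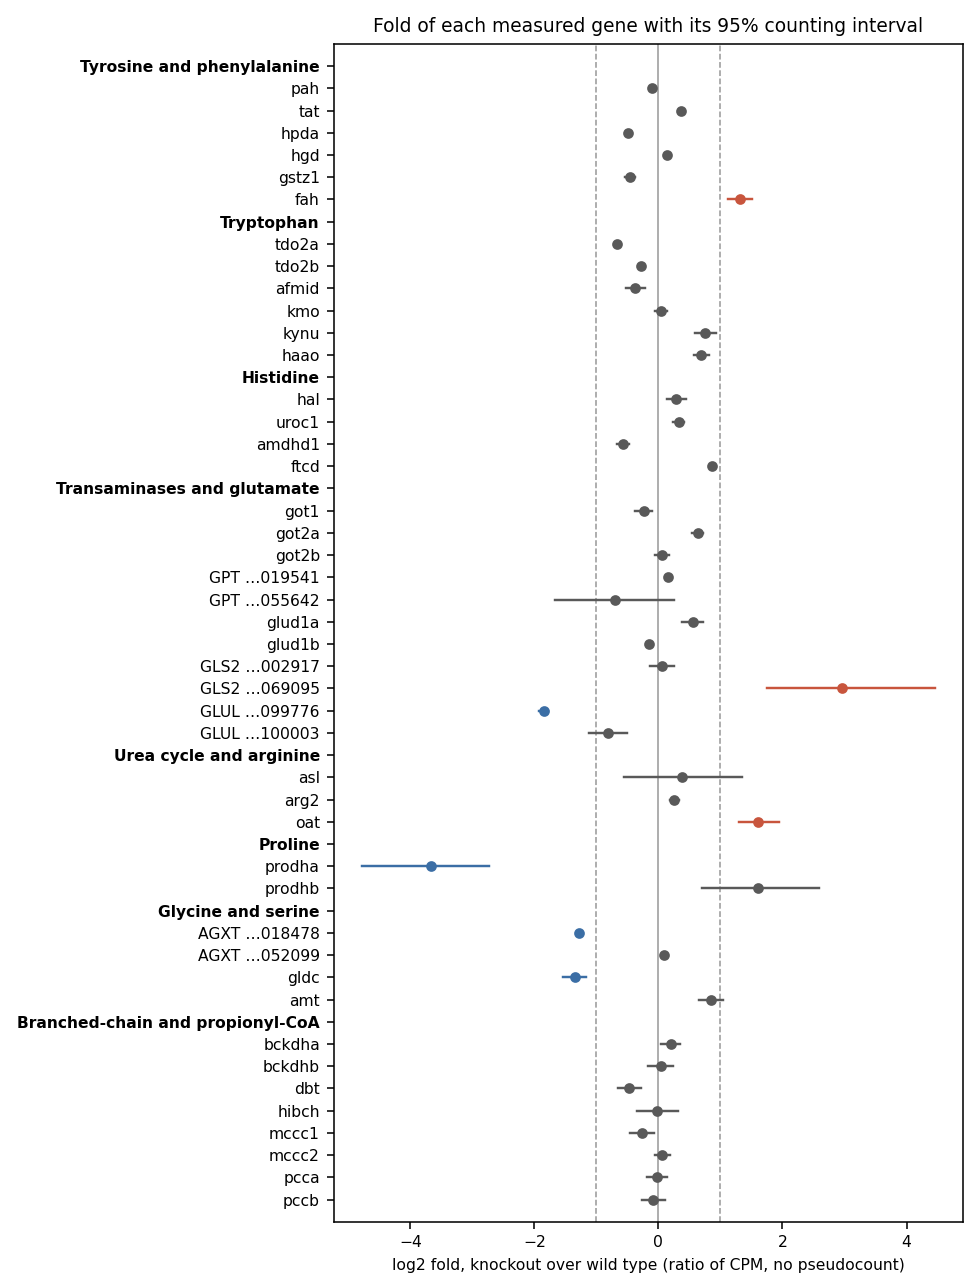
Fold of each of the 44 measured genes as the log2 ratio of CPM with no pseudocount, knockout over wild type, with exact binomial intervals (95%). Genes past the 2-fold rule, which adds 1 CPM, are red when higher and blue when lower, and dashed lines mark 2-fold. The prodhb point lies past the line but is not coloured because its ratio with 1 CPM added was 0.97, and the branched-chain genes sit around 0.

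Copies of a gene pair kept their order in all pairs but prodha and prodhb. The share of tdo2a in its pair was 61.0% (60.5 to 61.5) in wild type and 54.7% (54.2 to 55.2) in knockout liver. For got2a the share was 62.2% (60.3 to 64.1) and 71.1% (69.8 to 72.4), and by FPKM it was 52.2% and 62.0%. The main GLS2 gene had 98.4% (96.6 to 99.4) and 89.4% (86.7 to 91.7) of the reads of its pair. The main GLUL gene had 96.5% (96.0 to 97.0) and 93.1% (92.0 to 94.1). These shares do not depend on library scaling. Reads from near-identical copies can be split between them by the counting, and the sources used here do not say how the authors treated such reads.

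**Figure D4:**
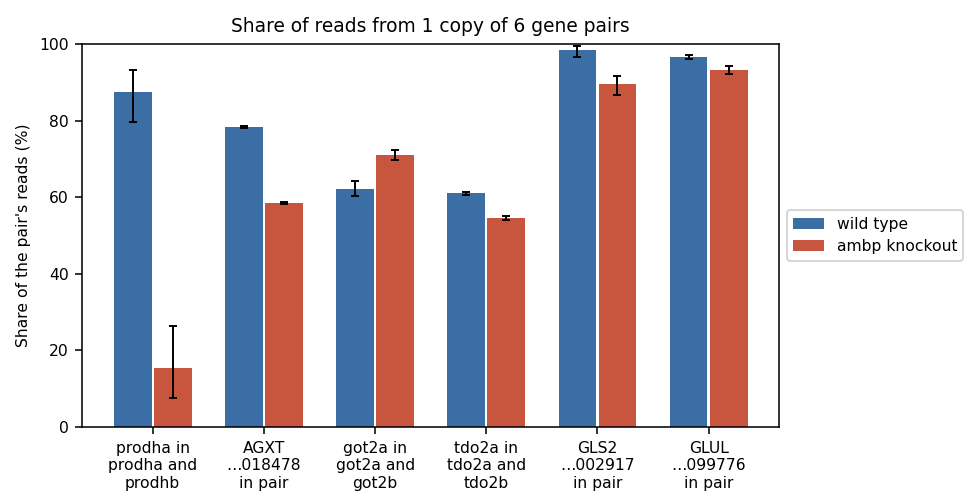
Share of the pair's reads (y axis, %) that came from 1 copy of 6 gene pairs, with wild type in blue and the knockout in red and exact binomial intervals (95%). The prodha share falls from 87.5% to 15.4%, the AGXT share from 78.4% to 58.5%, and the other 4 pairs differ by less.

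Summed levels show how far the set is carried by few transcripts. The 48 genes made up 2.57% of reads in wild type and 2.39% in knockout liver. Their summed level was 28061 CPM in wild type and 21863 CPM in knockout liver, 1.28-fold lower (1.28 to 1.29), and without hpda it was 18012 and 14699 CPM. Without both AGXT genes the sums were 21157 and 18040 CPM, a direction that turns with library totals, where the shares of reads were 1.94% and 1.97%. Tyrosine and phenylalanine genes summed to 13894 and 11375 CPM, and without hpda to 3844 and 4211 CPM, which turns the direction. Glycine and serine genes summed to 6974 and 3882 CPM, and without the main AGXT gene to 1563 and 1646 CPM, which turns it too. The tryptophan genes summed to 3011 and 2242 CPM, and without tdo2a to 1325 and 1177 CPM, a direction that turns with library totals. With library totals each fold of knockout over wild type is 1.19 times as large, by construction.

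**Figure D5:**
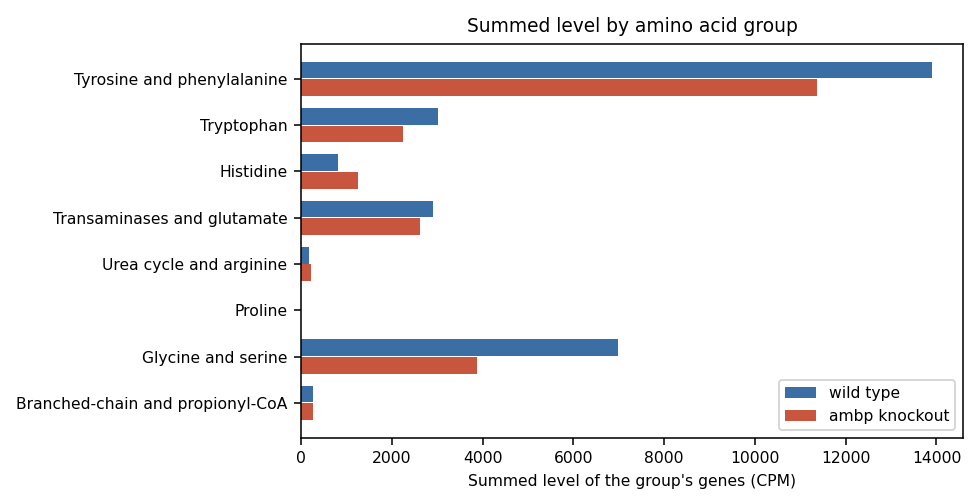
Summed level of the genes of each amino acid group in CPM (x axis, from 0), with wild type in blue and the knockout in red. Tyrosine and phenylalanine and glycine and serine hold most of the sum and are lower in the knockout, histidine is higher at 1264 against 822 CPM, and the proline bars are too short to see at 7.25 and 3.24 CPM.

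The wider list held 96 other genes of amino acid breakdown, cofactors, ammonia transport and purine nitrogen. Of 77 measured, 6 were past 2-fold higher and 2 lower, 10.4% beside the 11.8% of all genes, and the median log2 ratio was -0.01. Which share was larger depended on the setting. For the list and all genes they were 16.9% and 13.2% with library totals, 14.3% and 8.40% with FPKM, and 16.9% and 21.4% with 0.1 CPM added. The higher genes were agmat, aldh4a1, bcat1, glyctk, xdh and ech1, the last of which acts in fatty acid oxidation. Xanthine dehydrogenase, xdh, which makes uric acid from purines, had 1957 and 6663 reads, 136 and 332 CPM, 2.44-fold higher (2.32 to 2.56). Uricase, uox, which degrades uric acid in fish, had 17779 and 24332 reads and a ratio of -0.03. Glycerate kinase, glyctk, of serine and fructose breakdown, had 197 and 649 reads, 2.36-fold higher (2.01 to 2.78), and its implied length differed between the libraries, as did those of bcat1 and grhprb. None of the 5 lysine breakdown genes passed 2-fold. The lower genes were gch1 and bcat2, and grhprb, which reduces glyoxylate and is among the 5 genes of the list with most reads, had 20602 and 30588 reads and a ratio of 0.09.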

How the data were processed

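Per the labels, total RNA of the liver (TRIzol) was enriched for mRNA with oligo(dT) beads and turned into cDNA with a NEBNext Ultra kit. The submitters' processing notes list HISAT2, featureCounts and the build GRCz11, with neither versions nor roles. Per the file headers, the authors deposited an FPKM and an estimated count for each gene. The counts were not whole for 5.45% and 6.01% of genes and were rounded first. All 4 sample columns were used.

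Names came from an Ensembl name table, with RefSeq synonyms for hpdb and got2a. The listed names tdo2a, gpt2l, gls2a, glula, agxta and agxtb were matched through the names TDO2, GPT, GLS2, GLUL and AGXT. Several genes of the wider list were also matched through another name, and prodh2 through its deposited symbol. For 8 genes the name is shared by 2 genes and the identifier is given. TMM factors of 0.916 and 1.09 came from edgeR 4.0.16 in R 4.3.3. Genes with at least 1 CPM in a library, 11634 in all, were measured. Intervals are exact Poisson for levels, exact conditional binomial for folds and Clopper-Pearson for shares, at 95%, from scipy 1.17.1. A single read was worth 0.0697 CPM (wild type) or 0.0499 CPM (knockout). DESeq2 1.42.0 gave an alternative scaling. Code was tested on simulated counts.

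The members, lists and rules were chosen with earlier results of these data known. Every member found is named. Of the wider list, genes past 2-fold with at least 50 reads and the 5 with most reads are named. Other genes of that list named beside a member (such as pcbd1, acmsd, gatm, shmt2 and bckdk) were chosen after their values were seen. Chromosome positions and sequences are not used here.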

Additional observations from a re-analysis of the deposited data

How the results depend on the processing

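No paired analysis was possible because each genotype has 1 library. Of 346 values of single genes under alternatives, none of the calls past 2-fold changed sign, 234 moved by no more than the distance from the fold to the bound of its counting interval on that side and 112 moved further. The set's count past 2-fold was 7, and 15 at 1.5-fold and 1 at 4-fold. It was 4 of 36 measured (11.1%) when only genes that a name matches alone were kept, which was chosen after seeing the data. It was 10 with library totals (6 higher and 4 lower, which is 60.0% higher against 42.9%) and 10 with FPKM (7 and 3). Each is 22.7% of the set, beside 13.2% of all genes with library totals and 8.40% with FPKM. Implied gene length differed by more than 5% between the libraries for 7 of the 45 members with reads. They were kynu, haao, prodha, the second GLUL gene, afmid, the main GPT gene and pcca. With FPKM the log2 ratio was -0.01 against -0.36 for afmid, 0.53 against 0.16 for that GPT gene and 0.41 against -0.03 for pcca. The set's median moved to 0.29 (library totals), 0.25 (20 top genes left out of the scaling) and 0.29 (FPKM), where all genes had 0.22, 0.19 and 0.16. The wider list's count was 8, and 13 with library totals, 13 with a pseudocount of 0.1 CPM, 3 with 5 CPM, 29 at 1.5-fold and 0 at 4-fold. The count over all genes was 1372, and 2491 with 0.1 CPM, 470 with 5 CPM, 660 with the 10 CPM filter, 3875 at 1.5-fold and 150 at 4-fold. Other thresholds, filters and scalings count other genes by construction. With library totals all genes were 1071 higher and 485 lower, against 628 and 744. Genes with few reads, such as the prodh pair, asl and the rarer GLS2 gene, have wide counting intervals, and no value here covers variation between fish.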
